A study of Mus musculus with 21 samples.

Results

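The 10 genes described here encode proteins that remove phosphate from JAK2 and its receptor complex or that dock onto it and hold its output down. They are the protein tyrosine phosphatases Ptpn6 (SHP-1), Ptpn11 (SHP-2), Ptpn1 (PTP1B), Ptpn2 (TC-PTP), Ptprc (CD45) and Ptprj (CD148), the adaptor Sh2b3 (LNK), the ubiquitin ligases Cbl and Cblb, and the lipid phosphatase Inpp5d (SHIP1). They were listed by name, and all 10 were measured in every table, among 14698 genes that at least 1 of the 4 tables held and 9973 that all 4 held. The cells were Ba/F3 cells, a mouse line that normally needs interleukin-3, made to express JAK2-V617F, the constitutively active kinase of myeloproliferative neoplasms, so that every group, DMSO controls included, carried JAK2-V617F. In the first experiment cells stayed for 6 h in 1 µM ruxolitinib (ruxolitinib-treated), 1 µM CHZ868 (CHZ868-treated) or DMSO (DMSO-treated). In the washout experiments cells had 1 h of 1 µM ruxolitinib or 1 µM CHZ868, were washed with PBS and were kept for 6 h without inhibitor (ruxo-wash and CHZ-wash), each beside its own DMSO-wash group. Each of the 7 groups had 3 libraries from 1 cell line, and nothing in the sources used here says that the 3 came from separate cultures, so p-values measure the spread between libraries, which may be technical.

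JAK2 sits on the inside of cytokine receptors. It is switched on when tyrosines of its activation loop are phosphorylated, after which it phosphorylates STAT5, and tyrosine phosphatases, the adaptor LNK and ubiquitin ligases of the Cbl family bring the signal back down. Ruxolitinib is a type I inhibitor that binds the active form of the kinase and leaves the activation loop phosphorylated, whereas the type II inhibitor CHZ868 binds an inactive form in which the loop is not. The study asked whether phosphatases reach that loop while ruxolitinib is bound, and the transcripts below give how much of each candidate's mRNA was present, not the amount, activity or binding of the protein.

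Values were deposited as log2 CPM, CPM being reads of a gene scaled to the total of its library, in 4 tables that were normalized separately. Whole reads could be recovered for 15 libraries, which held from 7880000 to 10670000 reads on listed genes, and the 10 genes had from 328 to 2755 reads each in them, which gives counting errors of 5.52% to 1.91%. The depth of the 6 libraries of the ruxolitinib washout experiment is unknown. Ruxolitinib-treated replicate 2 and replicate 3 of the DMSO-wash group of the CHZ868 experiment stood apart: pairs with the former varied 28.5 to 31.3 times as much as sampling noise (4.39 for the other pair) and pairs with the latter 23.7 to 38.5 times (5.73 for the other pair). The label calls the line pro-B, but of 12 pro-B markers each table listed only Cd79a and Cd79b, and Pax5, Ebf1 and Rag1 were not listed. The summed level of the listed markers was 29.2 to 34.0 CPM in DMSO-treated, 38.4 to 40.1 CPM in CHZ868-treated and 38.6 to 44.8 CPM in ruxolitinib-treated libraries. Of 13 mast and myeloid markers, the table of DMSO-treated and CHZ868-treated cells listed 4 (Gata1, Gata2, Prtn3 and Csf1r). Their summed level was 869 to 927 CPM in the former and 904 to 997 CPM in the latter. In ruxolitinib-treated libraries, whose table listed Hdc as well, it was 1099 to 1208 CPM. With CHZ868 Gata1 rose (0.47 on the log2 scale, limma adjusted p = 5.16e-05) and Prtn3 (-0.85, adjusted p = 2.37e-05) and Csf1r (-1.18, adjusted p = 0.00578) fell. With ruxolitinib Gata1 (centred difference 0.58) and Gata2 (0.30) were higher without overlap, while Prtn3 (-0.42) and Csf1r (-0.31) were lower but overlapped. The markers Cpa3, Ms4a2, Mpo and Elane were not listed. The part of these markers in the results was not tested.

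The promoters of the members are shown where they bear on the largest differences. RefSeq windows from 250 bases before to 50 after a start site (build GRCm38.p6) were found for 9 of the 10 genes, and Ptpn2 had none. Ptpn6 (chr6:124738660-124738959, minus strand) and Sh2b3 (chr5:121836055-121836354, minus strand) are printed because they moved most, in opposite directions, when JAK2 was inhibited. Capitals mark the 50 bases from the start site on.
Ptpn6: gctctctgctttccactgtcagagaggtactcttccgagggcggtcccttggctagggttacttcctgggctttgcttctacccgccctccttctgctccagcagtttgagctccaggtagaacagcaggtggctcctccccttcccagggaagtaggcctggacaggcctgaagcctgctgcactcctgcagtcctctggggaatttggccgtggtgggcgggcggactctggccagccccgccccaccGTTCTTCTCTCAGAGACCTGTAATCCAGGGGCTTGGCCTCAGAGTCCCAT
Sh2b3: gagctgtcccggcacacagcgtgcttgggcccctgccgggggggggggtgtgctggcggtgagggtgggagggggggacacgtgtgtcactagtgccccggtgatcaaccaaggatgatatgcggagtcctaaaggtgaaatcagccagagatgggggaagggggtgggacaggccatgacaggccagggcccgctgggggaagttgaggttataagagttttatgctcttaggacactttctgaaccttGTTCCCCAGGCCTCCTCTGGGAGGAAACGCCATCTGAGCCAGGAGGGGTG
Neither window held TTCNNNGAA, the palindromic core that STAT5 binds, which reads the same on both strands. It was found in 8.3% of all 32851 windows and in 1 of the 11 windows of the members, at an internal start site of Ptprj, 90 bases before the start (chr2:90479236-90479284, minus strand). The STAT5 target gene Cish (chr9:107296639-107296698, plus strand) is set beside it because its window held 2 copies. The first Cish copy begins at the start site itself, so both lie at or after it and not before it. Capitals mark the matches.
Ptprj: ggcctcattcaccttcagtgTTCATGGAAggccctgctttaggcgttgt
Cish: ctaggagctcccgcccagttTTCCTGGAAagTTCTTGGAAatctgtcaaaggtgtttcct
Of the 9 STAT5 target genes listed for comparison, 5 had windows, 6 in all, and 1 window held the letters. A match is a description of these letters in this window, and the last 50 bases of the Ptprj window were not found in a GENCODE transcript of that gene, whereas those of the Cish window were.

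Per length, the members covered a narrow range in DMSO-treated cells. On the scale of CPM per kb of the longest coding transcript, Inpp5d was highest at 36.6 ± 1.15 (SD, n = 3) and Ptpn1 lowest at 10.9 ± 0.86. The order between them was Ptprc (32.1 ± 0.509), Ptpn6 (31.9 ± 3.07), Ptpn11 (27.2 ± 1.67), Ptpn2 (26.0 ± 1.32), Ptprj (20.1 ± 0.399), Cbl (19.7 ± 1.45), Sh2b3 (18.7 ± 1.46) and Cblb (12.5 ± 0.867). Neighbours overlapped over libraries except that Inpp5d stood above Ptprc, Ptpn2 above Ptprj and Sh2b3 above Cblb. Which transcript these cells use was not measured, so the order rests on the longest one.

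Ptpn6, which encodes the SH2-domain phosphatase SHP-1 of blood cells and dephosphorylates JAK kinases and cytokine receptors, rose most with both inhibitors. It lies on chromosome 6 (124720707 to 124738714, GRCm38, minus strand). In deposited log2 CPM it stood at 6.03, 6.29 and 6.27 in DMSO-treated and at 7.05, 6.95 and 7.17 in CHZ868-treated libraries. Every CHZ868-treated library was above every DMSO-treated one, a difference of 0.86 ± 0.09 (log2, SE, 1.81-fold; limma adjusted p = 8.25e-07). After subtraction of each library's own median over the genes of both tables (the centred scale), ruxolitinib-treated libraries stood at 6.90, 7.27 and 7.07 against 6.05, 6.30 and 6.29 in DMSO-treated ones. The groups did not overlap and differed by 0.87 (log2, 1.83-fold), or by 0.77 without ruxolitinib-treated replicate 2. Ptpn6 shares 195 exon bases with Gm20531 on the other strand, and which strand setting was used in counting is not given, so reads of the pair cannot be told apart. Gm20531 itself was listed at 4.02 to 5.45 log2 CPM and differed by 0.86 ± 0.17 (adjusted p = 6.83e-04) with CHZ868 and by 0.82 with ruxolitinib.

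Ptpn11 encodes SHP-2, the closest relative of SHP-1 and the phosphatase proposed for the JAK2 activation loop, and its mRNA did not pass the test. The gene is on chromosome 5 (121130533 to 121191397, minus strand). It stood at 7.34, 7.25 and 7.16 log2 CPM in DMSO-treated and at 7.35, 7.10 and 6.98 in CHZ868-treated libraries. These ranges overlapped, and the difference was -0.10 ± 0.09 (limma adjusted p = 0.321), with a 95% interval from -0.29 to 0.08. Without CHZ868-treated replicate 1 it was -0.20 and passed the test, as it did with quantile normalization, at -0.21. Centred values were 7.35, 7.14 and 7.22 in ruxolitinib-treated and 7.35, 7.25 and 7.18 in DMSO-treated libraries, which overlapped, with a difference of -0.02.

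The non-receptor phosphatases PTP1B and TC-PTP, which act on JAK2 and on JAK1 and JAK3 respectively, did not pass the test with CHZ868. Ptpn1 (chromosome 2, 167932057 to 167979385, plus strand) stood at 5.53, 5.40 and 5.62 log2 CPM in DMSO-treated and at 5.59, 5.45 and 5.55 in CHZ868-treated libraries. The difference was 0.01 ± 0.10 (limma adjusted p = 0.913), with an interval from -0.19 to 0.22. Ptpn2 stood at 6.19, 6.05 and 6.10 in DMSO-treated and at 6.53, 6.04 and 6.51 in CHZ868-treated libraries, where replicate 2 was the low one. Its difference was 0.25 ± 0.11 (adjusted p = 0.0797), and without CHZ868-treated replicate 2 it was 0.41 and passed the test. With ruxolitinib both overlapped the DMSO-treated libraries, with centred differences of 0.14 for Ptpn1 and -0.03 for Ptpn2. Ptpn2 in ruxolitinib-treated libraries was at 6.01, 6.41 and 5.88, and without replicate 2, the highest, the difference was -0.18.

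The receptor-type phosphatases parted. Ptprj, which encodes CD148 of the plasma membrane, rose, and Ptprc, which encodes CD45, the most abundant surface phosphatase of blood cells, did not pass the test. Ptprj (chromosome 2, 90429754 to 90580647, minus strand) stood at 7.29, 7.26 and 7.24 log2 CPM in DMSO-treated and at 7.64, 7.66 and 7.68 in CHZ868-treated libraries. The groups were far apart for their spread, and the difference was 0.39 ± 0.06 (1.31-fold, limma adjusted p = 4.70e-05). With ruxolitinib its centred values were 7.69, 7.90 and 7.68 against 7.31, 7.27 and 7.25, a difference of 0.48 (1.40-fold, and 0.41 without ruxolitinib-treated replicate 2). Stretches of Ptprj of up to 876 bases recur at 98.7% identity in pseudogenes that no table listed, so reads could be split between them. Ptprc (chromosome 1, 138062861 to 138175708, minus strand) stood at 7.34, 7.33 and 7.38 in DMSO-treated and at 7.62, 7.46 and 7.25 in CHZ868-treated libraries, with a difference of 0.09 ± 0.08 (adjusted p = 0.334). CHZ868-treated replicate 3 was below all controls, and without it the difference was 0.19 and passed the test. With ruxolitinib Ptprc overlapped, at a centred difference of -0.01.

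Sh2b3 was the member that fell most. It encodes LNK, an SH2-domain adaptor that binds phosphorylated JAK2 and the thrombopoietin receptor and restrains both, and it lies on chromosome 5 (121815488 to 121837646, minus strand). It stood at 6.20, 6.41 and 6.26 log2 CPM in DMSO-treated and at 5.43, 5.54 and 5.49 in CHZ868-treated libraries, which is 640 to 871 against 349 to 432 reads. The 3 CHZ868-treated libraries were tight and all below the controls, and Sh2b3 fell by 0.81 ± 0.09 on the log2 scale (1.75-fold lower, limma adjusted p = 2.12e-06). Ruxolitinib-treated libraries were at 5.54, 5.83 and 5.65 on the centred scale against 6.21, 6.42 and 6.27. They did not overlap the controls and were 1.55-fold lower (centred difference -0.63, and -0.71 without replicate 2). Sh2b3 shares 99 exon bases with Atxn2 on the other strand, which went the other way with CHZ868 (1.00 ± 0.07, adjusted p = 1.04e-08) and with ruxolitinib (centred difference 0.66).

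The Cbl ligases attach ubiquitin to activated receptors and kinases, and the pair moved in opposite directions with CHZ868. Cbl (chromosome 9, 44142976 to 44234049, minus strand) stood at 7.81, 7.70 and 7.91 log2 CPM in DMSO-treated and at 7.33, 7.53 and 7.65 in CHZ868-treated libraries. It fell by 0.30 ± 0.08 (1.23-fold lower, limma adjusted p = 0.00537), and the gap between the groups was small. This call was lost in limma without its mean-variance trend. Cblb (chromosome 16, 52031225 to 52208048, plus strand) stood at 6.40, 6.27 and 6.46 in DMSO-treated and rose to 6.87, 6.76 and 7.01 in CHZ868-treated libraries (0.50 ± 0.08, 1.42-fold, adjusted p = 1.12e-04). With ruxolitinib Cblb was at 6.54, 7.11 and 6.66 on the centred scale against 6.41, 6.27 and 6.48. These did not overlap, but replicate 2 carried much of the centred difference, which was 0.38 with it and 0.21 without it. Cbl did not follow: its ruxolitinib-treated libraries, at 7.93, 7.94 and 7.88 on the centred scale, overlapped the controls at 7.83, 7.71 and 7.92, with a difference of 0.10. Stretches of Cbl recur in pseudogenes, 1 of 968 bases at 94.2% identity, that no table listed.

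Inpp5d encodes SHIP1, which removes a phosphate from the lipid that PI3-kinase makes and so limits Akt activation. It lies on chromosome 1 (87620312 to 87720507, plus strand). It stood at 7.50, 7.54 and 7.45 log2 CPM in DMSO-treated and at 7.65, 7.72 and 7.89 in CHZ868-treated libraries, and it rose by 0.26 ± 0.07 (1.19-fold, limma adjusted p = 0.00568). This call was lost with quantile normalization, which gave 0.15, and with limma without its mean-variance trend. With ruxolitinib it was at 8.02, 8.11 and 8.15 on the centred scale against 7.51, 7.55 and 7.47 in DMSO-treated libraries. The distance was larger than the spread within either group, at 0.59 (1.50-fold).

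**Figure D1:**
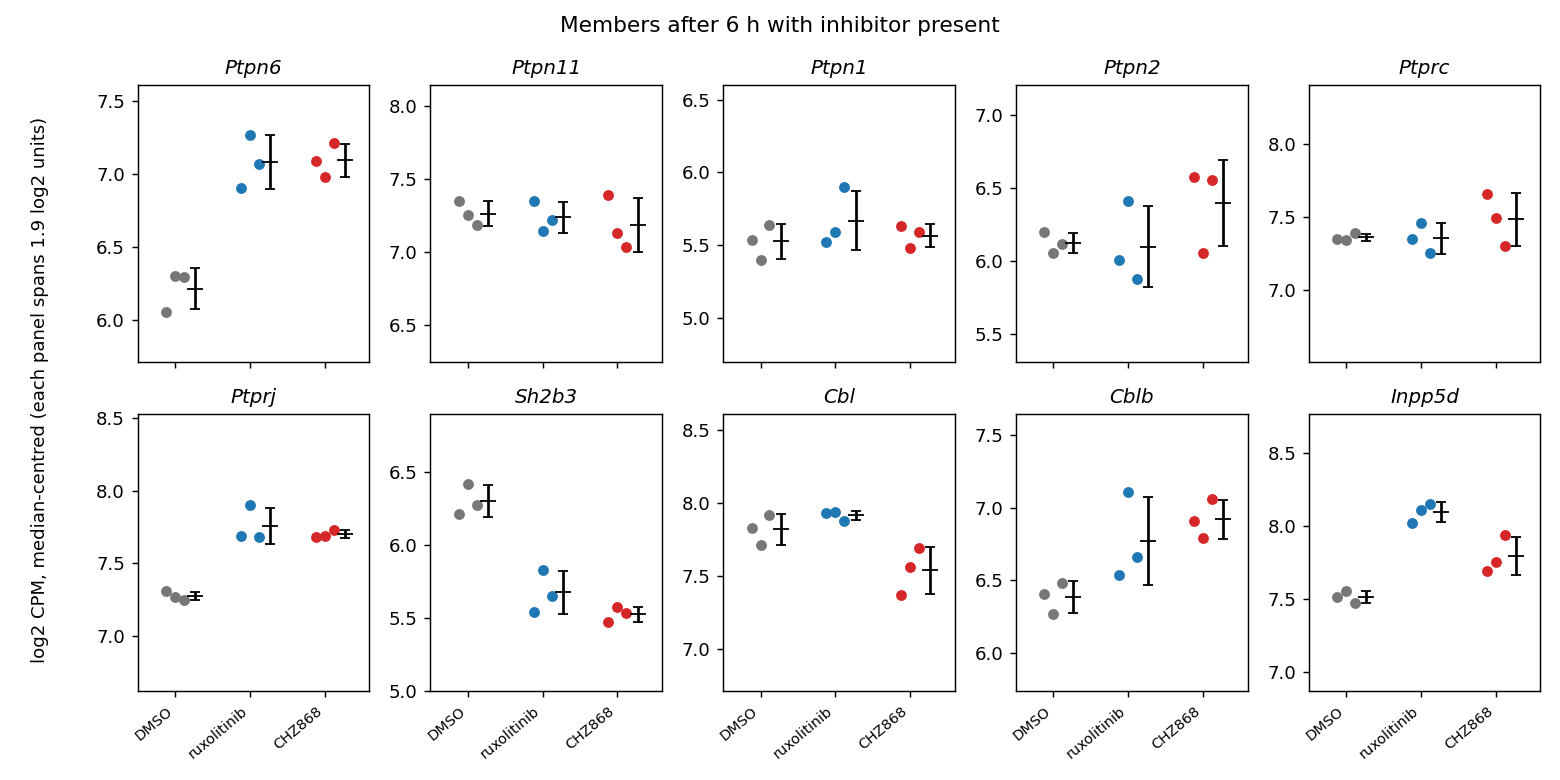
Median-centred log2 CPM of the 10 members (y axis) in DMSO-treated, ruxolitinib-treated and CHZ868-treated libraries after 6 h (x axis). Points are libraries, the bar is the mean with its SD (n = 3), and each panel spans the same range. Ptpn6 rises from at most 6.30 to at least 6.90 with either inhibitor, Sh2b3 falls from at least 6.21 to at most 5.83, and Ptpn11 stays within 7.03 to 7.39.

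Over the 10 genes, 4 rose and 2 fell with CHZ868, with a median difference of 0.17. Of all 11670 genes tested, 53.2% passed the test in either direction, 26.8% higher and 26.4% lower, with a median of -0.01, so the share of members called is close to that of all genes. With ruxolitinib 4 members were above and 1 was below DMSO-treated libraries without overlap, with a median of 0.12. Over all 11624 shared genes 44.6% did not overlap, 24.6% higher and 20.1% lower, with a median of 0.04. No test of single genes was made for ruxolitinib at 6 h, because the tables were normalized separately and table and treatment cannot be told apart. The CHZ868 and ruxolitinib comparisons share the same 3 DMSO-treated libraries.

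The inhibitors were set against each other at the matched dose and time, 1 µM for 6 h, on the centred scale and without a test, in a comparison chosen after the data had been seen. Groups did not overlap for 2 of the 10 members, beside 35.3% of all genes. Cbl was 0.37 higher with ruxolitinib (7.90 ± 0.03, SD, n = 3, against 7.53 ± 0.16 on a centring of the 6 inhibitor libraries), a 1.30-fold difference. Inpp5d was 0.30 higher (8.08 ± 0.07 against 7.78 ± 0.13, 1.23-fold). The other 8 overlapped, with Ptpn6 at -0.02, Ptpn11 at 0.05, Sh2b3 at 0.15 and Cblb at -0.15, and overlap at 3 libraries each does not show that the inhibitors act alike on them. Of these, Ptpn2 had the largest centred difference, at -0.30, with SDs of 0.28 and 0.29. With no centring, without ruxolitinib-treated replicate 2, or without CHZ868-treated replicate 2, 4 members did not overlap. Leaving a library out makes it easier for any gene not to overlap. Over all 11624 genes the count then ran from 4633 to 6671, against 4107 with all libraries. The count over all genes with no centring is not given here, so nothing about the members is read from that run.

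After washout no member passed the test. In the ruxolitinib washout experiment 0 of 10 were called by limma, beside 0.0229% of 13085 genes called, and 0 had an unadjusted p under 0.05, beside 7.03% of those genes. Ptprj had the largest difference, 0.11 ± 0.07 (limma adjusted p = 0.784), at 4.75, 4.83 and 4.76 log2 CPM in ruxo-wash against 4.60, 4.74 and 4.67 in DMSO-wash libraries. Ptpn6 was at 6.40, 6.47 and 6.42 in ruxo-wash and 6.47, 6.59 and 6.47 in DMSO-wash libraries, a difference of -0.08 with an interval from -0.21 to 0.04. Sh2b3, at 6.04, 6.24 and 6.29 against 6.15, 6.24 and 6.13, differed by 0.02 with an interval from -0.16 to 0.20. Intervals were widest for Ptpn11 (-0.55 to 0.42), whose DMSO-wash libraries were at 5.60, 5.46 and 6.19, and for Cbl (-0.40 to 0.48).

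In the CHZ868 washout experiment 0 of 10 members were called by limma and 0 by voom on recovered reads, beside 4.02% of 11355 genes called by limma. An unadjusted p under 0.05 was found for 3 members and for 24.4% of those genes, so the share is near that of all genes. These 3 were all lower after CHZ868. Ptpn6 stood at 5.89, 6.09 and 6.07 log2 CPM in CHZ-wash and at 6.37, 6.20 and 6.42 in DMSO-wash libraries (-0.31 ± 0.10, limma adjusted p = 0.0944). Ptpn1 stood at 5.59, 5.66 and 5.67 against 5.88, 6.02 and 5.84 (-0.28 ± 0.10, adjusted p = 0.114). Ptpn2 stood at 6.02, 6.06 and 5.99 against 6.18, 6.18 and 6.51 (-0.27 ± 0.11, adjusted p = 0.164). None of the 3 overlapped between groups, nor did Inpp5d (-0.09) and Cbl (0.18), which makes 5 of 10 beside 31% of all genes. Sh2b3 was at 7.36, 7.32 and 7.22 against 7.34, 7.35 and 7.23 (-0.01, interval -0.19 to 0.17), and Ptpn11 at 7.17, 7.28 and 7.19 against 7.19, 7.32 and 6.99 (0.05, interval -0.17 to 0.26).

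The DMSO-wash library that stood apart bore on these calls. Without replicate 3 of that group, 2 members passed the test, Ptpn1 at -0.32 and Ptprc at 0.32, and without replicate 2 of it 1 passed, Ptpn6 at -0.38. Of all genes 12.6% passed without replicate 3 and 11.4% without replicate 2. Cblb had 5.80, 5.59 and 5.55 log2 CPM in CHZ-wash and 5.84, 5.50 and 6.34 in DMSO-wash libraries, with replicate 3 the highest. Its difference was -0.25 with that library and -0.03 without it.

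**Figure D2:**
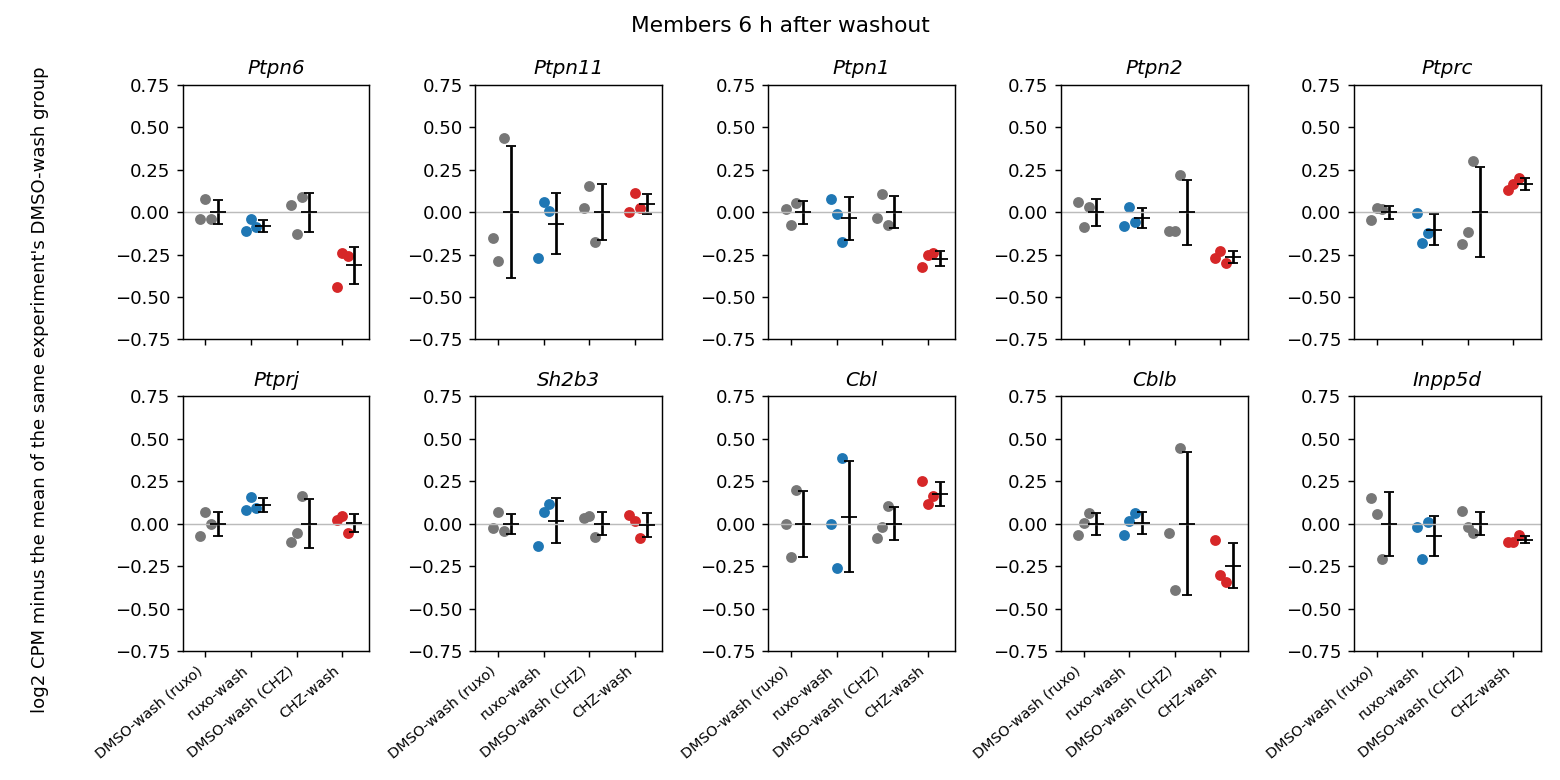
Members 6 h after washout, as log2 CPM minus the mean of the DMSO-wash group of the same experiment (y axis), by group (x axis). Points are libraries and the bar is the mean with its SD (n = 3). Ruxo-wash means stay between -0.10 and 0.11, and CHZ-wash libraries of Ptpn1, Ptpn2 and Ptpn6 lie below their controls.

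The effect of CHZ868 with the inhibitor present was then tested against its effect after washout, each against its own DMSO group. By limma, 7 of 10 members differed, beside 47.1% of 11175 genes. The effect on Ptpn6 was 1.17 ± 0.14 higher with CHZ868 present (adjusted p = 4.34e-06), and the effect on Sh2b3 was lower (-0.80 ± 0.11, adjusted p = 3.21e-05). Cblb (0.75 ± 0.21), Ptpn2 (0.51 ± 0.17), Ptprj (0.39 ± 0.11) and Inpp5d (0.35 ± 0.10) were higher with it present, and Cbl was lower (-0.48 ± 0.13). The call for Inpp5d was lost with quantile normalization, which gave 0.21. Exposure differed as well as washing, 6 h against 1 h, and the experiments were separate, so these cannot be told apart. Setting the ruxolitinib washout effect against the CHZ868 washout effect gave 0 of 10 calls by limma, beside 1.9% of 10078 genes, and 0 at an unadjusted p under 0.05, beside 18.9% of them. The largest difference was -0.27 ± 0.15 for Ptprc (adjusted p = 0.371), and with replicate 3 of the DMSO-wash group left out it was -0.42 and passed the test, as did 5.26% of all genes.

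**Figure D3:**
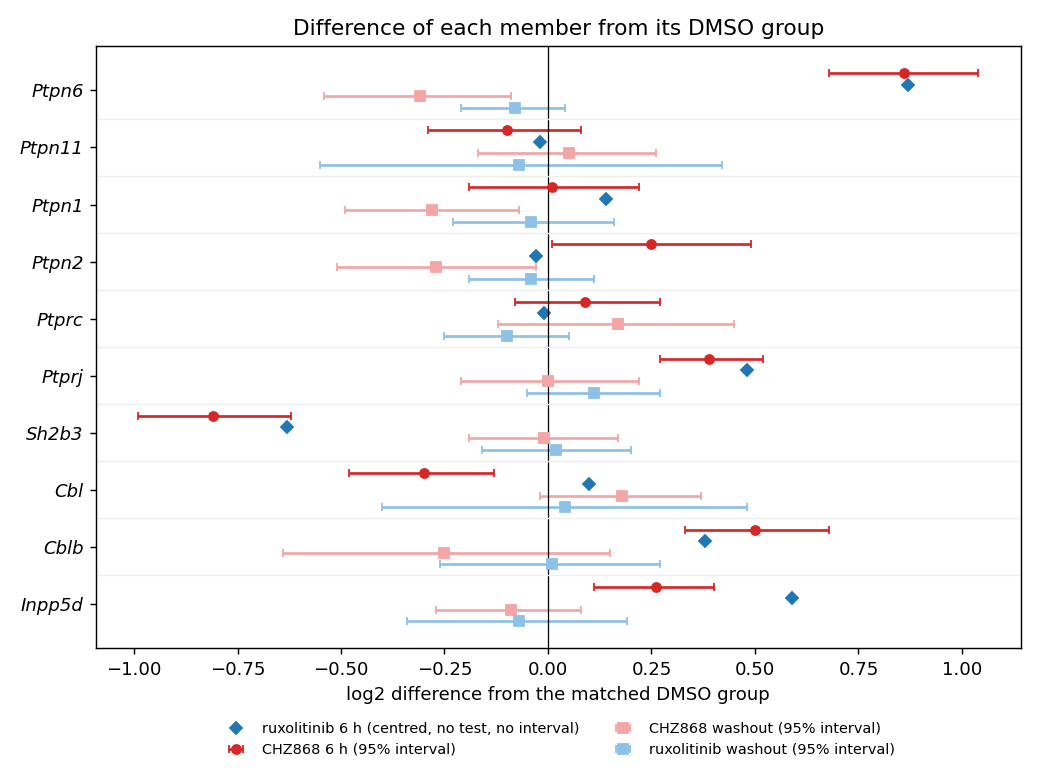
Log2 difference of each member from its own DMSO group (x axis) for CHZ868 at 6 h and both washouts, with 95% intervals from limma, and for ruxolitinib at 6 h as centred differences without an interval. Ptpn6 and Sh2b3 are far from 0 at 6 h with either inhibitor (0.86 and 0.87, -0.81 and -0.63), and the washout intervals of Sh2b3 hold 0. The CHZ868 washout intervals of Ptpn6 (-0.54 to -0.09), Ptpn1 (-0.49 to -0.07) and Ptpn2 (-0.51 to -0.03) do not. Intervals are not adjusted for the number of genes, and these 3 genes did not pass the adjusted test.

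Close relatives were set against each other inside each library, since the scaling of a library drops out of their log2 ratio. Over 15 such comparisons, an exact two-sided permutation test of 3 against 3 libraries cannot go below p = 0.10, and 5 comparisons reached it (adjusted p = 0.30). A ratio removes library scaling but not other differences between tables. For ruxolitinib at 6 h, table and treatment therefore cannot be told apart in the ratios either. The ratios are made of the single-gene values above and are not separate evidence. The log2 ratio of Ptpn6 to Ptpn11 was -1.30, -0.96 and -0.89 in DMSO-treated libraries. It was -0.46, 0.13 and -0.14 with ruxolitinib and -0.29, -0.15 and 0.18 with CHZ868. Neither inhibitor group overlapped the controls, and the shifts of the ratio were 0.89 and 0.96 (exact permutation p = 0.10 each). The log2 ratio of Cbl to Cblb was 1.41, 1.43 and 1.45 in DMSO-treated libraries, 1.39, 0.83 and 1.21 with ruxolitinib and 0.45, 0.77 and 0.64 with CHZ868. All 3 groups were free of overlap, and the ratio was 0.52 higher with ruxolitinib than with CHZ868 (exact permutation p = 0.10). The ratio of Ptpn1 to Ptpn2 overlapped in every comparison, with shifts of 0.16 for ruxolitinib and -0.23 for CHZ868. After washout all ratios overlapped their controls, and the largest shifts were 0.42 for Cbl to Cblb and -0.36 for Ptpn6 to Ptpn11 in CHZ-wash cells (exact permutation p = 0.20 each).

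**Figure D4:**
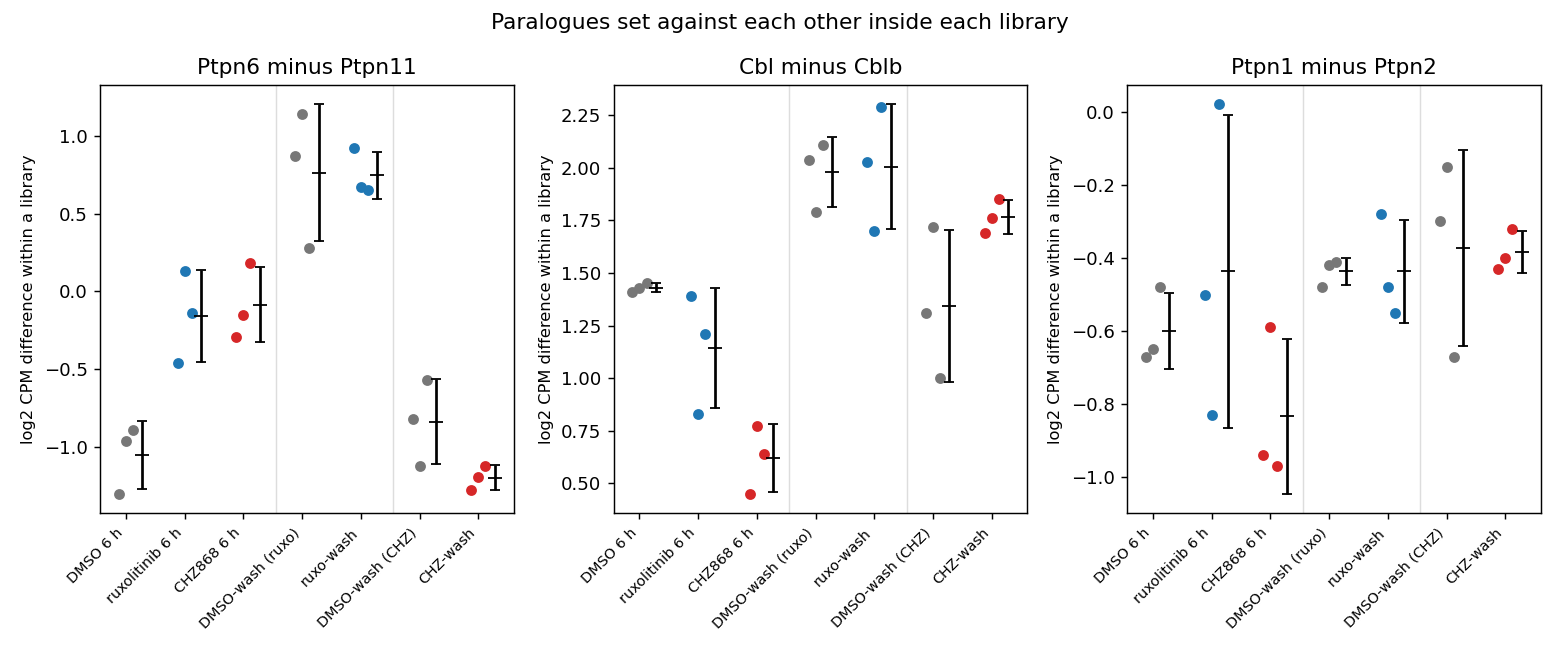
Log2 CPM of one gene minus that of its relative within a library (y axis) for 3 pairs, in the 7 groups (x axis, grey lines part the experiments). Points are libraries and the bar is the mean with its SD (n = 3). The Ptpn6 to Ptpn11 ratio rises from a mean of -1.05 to -0.16 with ruxolitinib and -0.09 with CHZ868.

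Other genes of the same classes were read from lists set by family. Of 32 other classical tyrosine phosphatases, 14 were measured with CHZ868, where 4 rose, 4 fell and 6 did not pass the test. Ptprv fell most (-1.14 ± 0.09), Ptpra, a receptor-type phosphatase that acts on Src kinases, rose (0.89 ± 0.08), and Ptpn18 fell (-0.63 ± 0.09). With ruxolitinib 6 of the 14 were higher and 3 lower without overlap, led by Ptpra (0.66), Ptpn21 (0.58) and Ptpn3 (0.41). Of 16 genes listed as Cbl-like, Cbl partners or inositol lipid phosphatases, 15 were measured, and with CHZ868 7 rose and 3 fell. Cbll1 (1.27 ± 0.08) and Sh3kbp1, which encodes the Cbl-binding adaptor CIN85 (1.08 ± 0.08), rose, and Inpp4b fell (-0.87 ± 0.15). With ruxolitinib 6 were higher and 2 lower, with Sh3kbp1 at 0.73, Inpp4b at -0.61 and Inpp5k at 0.56. Of 16 adaptors and docking proteins 12 were measured, and with CHZ868 1 rose and 6 fell. Irs2 (-2.76 ± 0.55), Dok1 (-1.03 ± 0.14) and Dok2 (-0.67 ± 0.09), all docking proteins of receptor signalling, fell most. With ruxolitinib 3 were higher and 2 lower, with Irs2 at -2.85, Dok2 at -0.60 and Shc1 at 0.28, and without ruxolitinib-treated replicate 2, 10 of the 12 did not overlap. The counts with all libraries stand beside the shares of all genes given above. With a library left out, 5871 to 6654 of all 11624 genes did not overlap between ruxolitinib-treated and DMSO-treated libraries, against 5190 with all.

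The SOCS family includes feedback inhibitors that STAT5 itself induces, and the PIAS proteins bind STATs in the nucleus. Of 12 measured, 2 rose and 6 fell with CHZ868, with a median of -0.29, and with ruxolitinib 2 were higher and 6 lower, with the same median. Over all genes 53.2% were called with CHZ868 and 44.6% did not overlap with ruxolitinib. Socs1, which blocks the JAK catalytic site, fell by 5.20 ± 0.37 with CHZ868 and had a centred difference of -4.06 with ruxolitinib. Socs3 (-1.47 ± 0.27 and -1.43) and Cish (-1.39 ± 0.08 and -1.32) followed. The corresponding differences of Sh2b3 were -0.81 and -0.63.

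All 9 STAT5 target genes fell with CHZ868 and were lower without overlap with ruxolitinib, with medians of -2.24 and -1.95. Over all genes 26.4% were called lower with CHZ868, and 20.1% were lower without overlap with ruxolitinib. The list was chosen with earlier results of these data known. The 9 genes include Socs1, Cish and Socs2 (-0.66 ± 0.12 and -0.71) of the SOCS list. The others were Pim1 (-3.20 ± 0.08 and -2.84), Pim2 (-2.56 ± 0.17 and -2.34), Osm (-2.46 ± 0.22 and -2.33), Id1 (-2.24 ± 0.12 and -1.95), Bcl2 (-0.45 ± 0.07 and -0.28) and Myc (-0.27 ± 0.07 and -0.97). After either washout none was called by limma, while 4 after ruxolitinib and 1 after CHZ868 had an unadjusted p under 0.05, beside 7.03% and 24.4% of all genes. Of the 4, Pim2 (0.35 ± 0.05, limma adjusted p = 0.218), Id1 (0.14 ± 0.02, 0.197) and Pim1 (0.10 ± 0.03, 0.659) were higher. Bcl2 (-0.26 ± 0.06, 0.445) was lower. The study reported significant increases of PIM2 and ID1 in ruxo-wash cells. Of 13 core genes of the pathway, 4 rose and 7 fell with CHZ868, among them Jak3 (-0.83 ± 0.08), which fell, and Epor (0.39 ± 0.14), which rose. With ruxolitinib 7 were higher and 2 lower, with Epor at 0.85 and Stat5a at 0.50. The pathway counts stand beside 53.2% of all genes called with CHZ868 and 44.6% without overlap with ruxolitinib. Jak2, the mouse gene, stood at 7.99, 7.94 and 7.98 log2 CPM in DMSO-treated and rose to 8.26, 8.16 and 8.07 with CHZ868 (0.19 ± 0.06, limma adjusted p = 0.0154). With ruxolitinib its centred difference was 0.06 and the libraries overlapped. How reads of the introduced JAK2-V617F were assigned is not given, so the row may hold some of them. After washout, 1 of the other tyrosine phosphatases, Ptpn4, was called after CHZ868 (0.47 ± 0.11, limma adjusted p = 0.0427), as was 1 adaptor, Crk (0.50 ± 0.09, adjusted p = 0.0316). Both calls were lost in limma without its trend and when any CHZ-wash library or DMSO-wash replicate 1 was left out. No listed gene was called after ruxolitinib.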

How the data were processed

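The 21 RNA-seq libraries of Ba/F3 cells with JAK2-V617F, 3 in each of 7 groups, were grouped by their labels. According to the study's methods the authors pseudo-aligned reads with kallisto to GRCm38, summed them per gene, filtered low expression, normalized by TMM and deposited log2 CPM, whereas the submitters' processing notes name STAR 2.7.3a, edgeR 4.0.16 and GRCm39. Gene positions and lengths here are from the GENCODE annotation of GRCm38.

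The deposited log2 values entered linear models with a mean-variance trend (limma-trend, version 3.58.1, under R 4.3.3), Benjamini-Hochberg adjusted over all genes of a fit, called at an adjusted p under 0.05. Fits within a table used its 2 groups, and differences between effects used 4 groups over shared genes. Ruxolitinib-treated and DMSO-treated libraries, held in separate tables, were each centred on their median over 11624 shared genes and described by whether the groups overlap. Whole reads (100% of low values within 0.05 of a read) were recovered from 3 tables. Near copies were searched with BLAST 2.17.0 (at least 90% identity over 200 bases), and the scripts were tested on simulated data. Members and lists were chosen with earlier results of these data known. All 10 members are named, with the 3 largest called genes of each list, Jak2 and all STAT5 targets, except that 1 gene of the pathway list is not reported here. Alternatives were another scaling, a pseudocount of 1 CPM, a filter at a mean log2 CPM of 1, no trend, voom, a replicate block and leaving out each library.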

Additional observations from a re-analysis of the deposited data

Results flagged for a closer look

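The effect of CHZ868 with the inhibitor present differed from its effect after washout for 7 members by limma, in a test of the difference itself (beside 47.1% of all genes). On the log2 scale the difference was 1.17 for Ptpn6 (95% interval 0.89 to 1.46, adjusted p = 4.34e-06), 0.75 for Cblb (0.30 to 1.20, adjusted p = 0.00786), 0.51 for Ptpn2 (0.15 to 0.88, adjusted p = 0.0212), 0.39 for Ptprj (0.16 to 0.63, adjusted p = 0.00785) and 0.35 for Inpp5d (0.13 to 0.57, adjusted p = 0.0109). It was -0.80 for Sh2b3 (-1.04 to -0.56, adjusted p = 3.21e-05) and -0.48 for Cbl (-0.74 to -0.21, adjusted p = 0.00486). For Ptpn6, Ptpn2, Inpp5d, Cbl and Cblb the effect after washout had the other sign, though it passed no test there, and a wash effect of that sign adds to the difference. The call for Ptpn2 was lost without DMSO-treated replicate 2 (0.48), CHZ868-treated replicate 1 (0.43) or CHZ868-treated replicate 3 (0.44). The call for Inpp5d was lost with quantile normalization (0.21). Without replicate 3 of the DMSO-wash group, Ptpn1 was called as well (0.33). Length of exposure, washing and experiment cannot be told apart in this difference.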

How the results depend on the processing

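With CHZ868 at 6 h, 4 to 7 members were called under every alternative run (6 in the reported fit), and Ptpn6, Ptprj, Sh2b3 and Cblb were called in all of them. With quantile normalization the 6 held Ptpn11 in place of Inpp5d. When a library was left out, 6 or 7 members were called, beside 5081 to 6426 of all 11670 genes. The reported fit called 6214 of all genes (53.2%), so the member counts stand beside a large share of all genes. The count of 4 members came from limma without its mean-variance trend, and no count over all genes is given here for that run. With ruxolitinib at 6 h, 5 or 6 members did not overlap (5871 to 6654 over all genes when a library was left out, against 5190). Between the inhibitors at 6 h, 4 did not overlap with no centring and 2 to 4 when a library was left out (4633 to 6671 over all genes, against 4107). The range over all genes is for libraries left out. None is given here for no centring, so nothing about the members is read from that run. After CHZ868 washout, 0 to 2 members were called when a library was left out, and 0 to 1 between the washout effects, as given in the report. Over all genes the washout counts moved far more: after CHZ868, 457 became 0 without the trend and 0 to 1426 with a library left out. After ruxolitinib, 3 became 9 without the trend and 0 to 1 with a library left out, and between the washout effects 191 became 14 and 5 to 628. Among the lists after CHZ868 washout, the other tyrosine phosphatases went from 1 to 0 without the trend, 2 with quantile normalization and 0 to 3 with a library left out, and the adaptors from 1 to 0 and 0 to 3. The cause was not tested.

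Directions turned only in differences that passed no test. With quantile normalization Ptprc became -0.0138 with CHZ868 at 6 h, Sh2b3 0.0105 after CHZ868 washout and Inpp5d -0.0115 between the washout effects, and with libraries centred on their median Ptprj became -0.00880 after CHZ868 washout. With a library left out, Ptpn1 ran from -0.0459 to 0.0684 with CHZ868 at 6 h. With ruxolitinib at 6 h, where single genes were not tested, the centred difference from DMSO ran from -0.18 to 0.0853 for Ptpn2, from -0.0806 to 0.0247 for Ptpn11 and from -0.0585 to 0.0437 for Ptprc. From CHZ868 it ran from -0.0187 to 0.17 for Ptpn1, from -0.11 to 0.0762 for Ptpn6, from -0.0230 to 0.16 for Ptpn11 and from -0.0123 to 0.0982 for Ptprj. After ruxolitinib washout Ptpn1 ran from -0.0947 to 0.0311, Ptpn11 from -0.21 to 0.15, Inpp5d from -0.18 to 0.00132, Sh2b3 from -0.0297 to 0.0933, Cbl from -0.14 to 0.19 and Cblb from -0.0280 to 0.0390. After CHZ868 washout Ptpn11 ran from -0.0408 to 0.13, Ptprj from -0.0509 to 0.0856 and Sh2b3 from -0.0462 to 0.0324. Between the washout effects Ptpn11 ran from -0.26 to 0.11, Inpp5d from -0.0841 to 0.0962, Sh2b3 from -0.0213 to 0.10 and Cbl from -0.31 to 0.0130, and between the CHZ868 effects Ptprc from -0.23 to 0.0231.

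Same-numbered libraries did not deviate together (correlations from -0.05 to 0.05), so the numbers are not taken to pair them. With the replicate block, 7 members were called with CHZ868 at 6 h, Ptpn2 at 0.25 being added, 0 after either washout, 0 between the washout effects and 7 between the CHZ868 effects. Over all genes the block gave 0 after ruxolitinib washout and 6 between the washout effects. The 7 members called in each CHZ868 fit stand beside a large share of all genes. Without the block it was 53.2% with CHZ868 at 6 h and 47.1% between the CHZ868 effects.

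Counting error in a single library is about 1.91% to 5.52% for these genes, but libraries differed by more than that. The variance between libraries of a group was 2.17 to 38.5 times sampling noise where reads were recovered. For CHZ868-treated pairs it was 6.36 to 14.4 times. Depth is unknown in the ruxolitinib washout table, and with 3 libraries a group differences of the size of the widest intervals were not detectable.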

Other observations

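The DMSO groups of the 3 experiments, all without inhibitor, stood at different levels in their separately normalized tables, given here in log2 CPM (mean ± SD, n = 3). Cblb was at 6.38 ± 0.10 in DMSO-treated, 5.89 ± 0.42 in DMSO-wash of the CHZ868 experiment and 2.99 ± 0.07 in DMSO-wash of the ruxolitinib experiment. Cbl was at 7.81 ± 0.11, 7.24 ± 0.10 and 4.96 ± 0.19, and Ptprj at 7.26 ± 0.03, 6.46 ± 0.15 and 4.67 ± 0.07 in the same order. Ptpn6 went little with them, at 6.20 ± 0.14, 6.33 ± 0.11 and 6.51 ± 0.07. The Ptpn6 to Ptpn11 log2 ratio, which is free of library scaling, was -1.05 ± 0.22, -0.84 ± 0.28 and 0.76 ± 0.44. Experiment, table, handling and the way reads were counted cannot be told apart in these values. Whole reads were not recovered for the ruxolitinib washout experiment, unlike the others, and the sources name different counting tools.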
